A study of Rattus norvegicus with 192 samples.

Results

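Fdps, Idi1, Fdft1, Sqle, Lss, Nsdhl, Dhcr7 and Insig1, genes of cholesterol synthesis and its feedback control, were followed in 6 tissues of rats that had breathed phosphine or air. The list was drawn up by gene name, with earlier results of these data known, and held 9 genes. A probe set was taken where the annotation of the array names only 1 of them, which gave 10 probe sets for 8 genes, of 31042 probe sets and 13438 named genes tested. Hmgcs1 was not analysed here. Fdft1 and Lss had a second probe set, and each gene is given by its brightest, the probe set with the highest mean over the Air means of the tissues.

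Male Sprague-Dawley rats were exposed in a whole-body chamber to phosphine (PH3), a pest-control gas known to poison mitochondrial respiration, at a concentration of 660 ppm over 25 min (16500 ppm×min), or to air at 0 ppm for 25 min. Solid tissues (heart, kidney, lung, brain stem and olfactory bulb) and blood were taken 1, 3, 6 and 24 h later, in both groups under ketamine and xylazine followed by bleeding out. The labels name no genetic modification and give no age. The 48 groups held 4 rats each, apart from the blood Air group of 24 h with 3 and the olfactory bulb Air group of 1 h with 5, which makes 192 arrays. All values are RMA levels on the log2 scale, and an effect is PH3 minus Air at the same time ± SE from limma, with a Benjamini-Hochberg adjusted p taken across the 31042 probe sets. A gene was called at an adjusted p under 0.05. Within a tissue no rat gave more than 1 array, so p-values measure the spread between rats.

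Cholesterol is built from acetyl units through mevalonate, isoprenoids, squalene and lanosterol. When membrane sterol is low, SCAP carries the transcription factor SREBP-2 from the endoplasmic reticulum to the Golgi, where it is cut and freed to switch on nearly every enzyme of the route. Insig1 holds SCAP back when sterol is plentiful and is itself an SREBP target, and in nervous tissue the route supplies the myelin of oligodendrocytes.

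RefSeq promoter sequences (GRCr8, 250 bases before to 50 bases after the gene start) were matched for 6 of the 8 genes, Dhcr7, Fdps, Insig1, Idi1, Lss and Nsdhl. Insig1 and Dhcr7 are shown because both were called in kidney, and Nsdhl because it held the most CCAAT matches. CCAAT, bound by NF-Y, was searched on both strands and was present in 5 of the 6, in all but Dhcr7, against 37.5% of 33469 rat promoters of the same length. GGGCGG, bound by Sp1, was present in 4 of the 6 (Dhcr7, Fdps, Insig1 and Lss) against 33.1% of all. CACGTG, an E-box, was present in 1 of the 6 (Insig1) against 6.42%, and TCACNCCAC, a form of the sterol element, in 0 of the 6 against 1.12%. Other forms of the sterol element were not searched, so the 0 does not mean that these promoters lack one. No match overlapped a match of another motif. Capitals mark every match of the first 3 motifs on either strand (a match on the other strand shows as its reverse complement), in Insig1 (chr4:8057720-8058019, minus strand), Dhcr7 (chr1:208444184-208444483, plus strand) and Nsdhl (chrX:155817110-155817409, plus strand):
Insig1: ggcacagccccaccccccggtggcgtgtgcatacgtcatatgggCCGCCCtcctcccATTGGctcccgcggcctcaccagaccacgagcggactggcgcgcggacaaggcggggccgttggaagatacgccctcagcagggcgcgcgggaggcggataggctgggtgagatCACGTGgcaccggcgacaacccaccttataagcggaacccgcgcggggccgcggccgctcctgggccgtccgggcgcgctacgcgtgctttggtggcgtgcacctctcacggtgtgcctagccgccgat
Dhcr7: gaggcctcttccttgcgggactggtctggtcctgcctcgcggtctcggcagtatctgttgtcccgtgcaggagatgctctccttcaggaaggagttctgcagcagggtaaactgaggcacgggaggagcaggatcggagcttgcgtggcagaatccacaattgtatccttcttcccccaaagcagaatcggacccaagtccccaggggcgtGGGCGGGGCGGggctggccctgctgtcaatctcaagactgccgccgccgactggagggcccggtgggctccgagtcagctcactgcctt
Nsdhl: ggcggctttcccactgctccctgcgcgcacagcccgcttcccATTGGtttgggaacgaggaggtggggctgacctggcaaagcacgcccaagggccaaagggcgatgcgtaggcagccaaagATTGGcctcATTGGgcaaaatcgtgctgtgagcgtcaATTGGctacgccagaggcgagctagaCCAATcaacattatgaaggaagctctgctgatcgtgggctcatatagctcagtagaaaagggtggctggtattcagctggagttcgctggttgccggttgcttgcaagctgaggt
Counted from the gene start, the CCAAT match of Insig1 began at base -193 and its E-box at -79. The CCAAT matches of Nsdhl began at -208, -128, -119, -91 and -65, and the GGGCGG matches of Dhcr7, which share a base, at -39 and -34.

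Kidney at 1 h was the single contrast, of 24, in which any of the 8 genes was called. Insig1, Sqle and Dhcr7 rose there, 3 of 8 genes, where 2.35% of all probe sets were called and 1.51% were called higher. The list was drawn up with earlier results of these data known, so these shares are not an independent background for it. Of the 8 effects 7 were above 0, with a median of 0.30 log2 units against -0.00239 over all probe sets.

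Insig1, the sterol sensor that retains SCAP, read 7.93, 7.98, 8.04 and 7.97 in the kidneys of the Air rats (Rat345, Rat352, Rat353 and Rat354) and 9.24, 9.17, 8.46 and 8.61 in those of the PH3 rats (Rat343, Rat350, Rat351 and Rat357). The Air arrays lay close together and every PH3 array lay above them, Rat343 and Rat350 by most. The effect was 0.89 ± 0.18 (a ratio of 1.86; 95% interval 0.52 to 1.265; adjusted p = 0.00482).

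Sqle, squalene epoxidase, which adds oxygen to squalene, read 7.73, 7.81, 7.61 and 7.31 in Air and 8.22, 8.36, 8.02 and 8.28 in PH3, in the same order of rats. The groups did not overlap, and Air Rat354 was the lowest of the 8. The effect was 0.61 ± 0.13 (a ratio of 1.52; 95% interval 0.33 to 0.88; adjusted p = 0.00972).

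Dhcr7, the last enzyme of the Kandutsch-Russell route to cholesterol, read 8.55, 8.68, 8.71 and 8.73 in Air and 9.29, 9.28, 9.04 and 9.29 in PH3. All PH3 arrays lay above all Air arrays, with Rat351 lowest among them. The effect was 0.56 ± 0.15 (a ratio of 1.47; 95% interval 0.26 to 0.85; adjusted p = 0.0364).

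The other enzymes were not called in kidney at 1 h, and their groups overlapped. Idi1, which interconverts the activated isoprene units, differed by 0.35 ± 0.17, Fdps, which joins them to farnesyl diphosphate, by 0.25 ± 0.10, Fdft1, squalene synthase, by 0.13 ± 0.11, and Nsdhl, which helps strip methyl groups from lanosterol, by 0.12 ± 0.15. Lss, which closes squalene epoxide to lanosterol, differed by -0.07 ± 0.27 on its brighter probe set and -0.25 ± 0.26 on the other. The second Fdft1 probe set gave 0.12 ± 0.15, so neither second probe set differed in call.

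**Figure D1:**
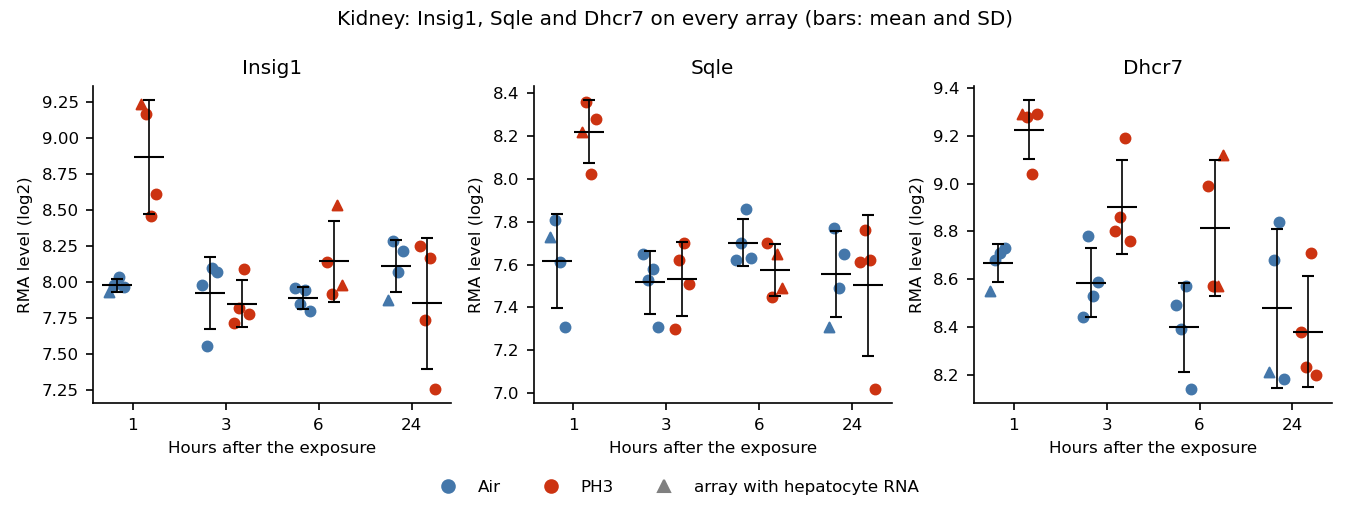
RMA level (log2) of Insig1, Sqle and Dhcr7 on every kidney array against the hours after exposure, with Air in blue, PH3 in red, bars for the mean and SD, and triangles for arrays with hepatocyte RNA. At 1 h all PH3 arrays sit above all Air arrays of the same hour in the 3 panels, and at 3, 6 and 24 h the groups overlap.

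Hepatocyte RNA was present on 2 kidney arrays of this hour, and the mean of 5 hepatocyte markers (Alb, Apoa1, Ttr, Fgb and Serpina1) was 9.56 in PH3 Rat343 and 9.67 in Air Rat345, against a median of 4.34 over the kidney arrays, so each group held 1 such array. Without the 5 kidney arrays that carried such RNA the effects of Insig1, Sqle and Dhcr7 were 0.755, 0.647 and 0.494, with adjusted p of 0.0724, 0.0519 and 0.18, and 0 of the 8 genes were called. With the rat as a block over all tissues Insig1 alone was called (adjusted p = 0.0209), from a fit of these 2 groups alone Dhcr7 alone (0.0434), and without Air Rat354 Insig1 alone (0.0147). Of the red cell markers, 5 of 5 measured were above 0 in PH3 and 2 were called (Alas2 by 1.38 ± 0.35 and Ahsp by 0.82 ± 0.22), with the mean of the list at 4.674 to 5.11 in Air and 5.139 to 5.654 in PH3; the part of blood content in the result was not tested. The kidney markers ranged from 10.12 to 10.28 in Air and 9.807 to 10.18 in PH3, with 0 of 4 called. Fewer cells of a type and less RNA per cell cannot be told apart in these tissues.

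At the later hours none of the 3 genes was called in kidney, and the PH3 and Air groups overlapped. Insig1 read 7.98, 7.56, 8.10 and 8.07 in Air and 7.72, 7.82, 8.09 and 7.78 in PH3 at 3 h, an effect of -0.07. At 6 h the effect was 0.25, with PH3 Rat387, whose hepatocyte markers averaged 11.60, at 8.54 and the other PH3 rats at 7.92 to 8.14. At 24 h it was -0.26, with PH3 Rat341 at 7.26 and Rat326 at 7.74 below every Air array and the other PH3 rats at 8.17 and 8.25. Sqle in Rat341, 7.02, also lay below every Air array of that hour. Dhcr7 read 8.44, 8.78, 8.53 and 8.59 in Air and 8.80, 8.86, 9.19 and 8.76 in PH3 at 3 h, where 3 of 4 PH3 arrays lay above every Air array, and 8.49, 8.39, 8.57 and 8.14 in Air and 8.99, 8.57, 8.57 and 9.12 in PH3 at 6 h. Its effects were 0.32, 0.41 and -0.10 at 3, 6 and 24 h, with no call, and those of Sqle 0.02, -0.13 and -0.05. In kidney 0 of 8 genes were called at 3 h (0.303% of all probe sets), at 6 h (0.0161%) and at 24 h (0%). A test of whether the effect changed between the 4 times passed for 0 of 8 genes, against 0.49% of probe sets, with Insig1 nearest (adjusted p = 0.0817, and 0.0228 without PH3 Rat351 at 1 h or 0.0453 without PH3 Rat325 at 24 h).

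Other genes of the route and its control were read from lists chosen by function. In kidney at 1 h, 8 of 10 measured enzymes of cholesterol synthesis outside the 8 genes were above 0 and 0 were called. Msmo1, the oxidase that removes the methyl groups of lanosterol, was nearest at 0.40 ± 0.12 (adjusted p = 0.0721). Cyp51, lanosterol demethylase, differed by 0.42 ± 0.15 (adjusted p = 0.185). Of the 8 above 0, Mvk (0.006 ± 0.103), Acat2 (0.02 ± 0.11), Mvd (0.04 ± 0.11) and Sc5d (0.12 ± 0.24) lay within their SE of 0. Srebf2, which encodes SREBP-2, differed by 0.07 ± 0.11 and Srebf1, which encodes the form that drives fatty acid synthesis, by 0.24 ± 0.14, and over all 24 contrasts neither was called (lowest adjusted p 0.411 and 0.519). Of the SREBP control genes 0 of 6 were called, of uptake and transport 0 of 5, of export, esters and oxysterols 0 of 10, of fatty acid synthesis 0 of 11 and of the isoprenoid branch 0 of 6.

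The effect at 1 h differed between the 6 tissues for Insig1 (adjusted p = 0.000542) and Sqle (0.00451) of the 8 genes, where 3.09% of probe sets passed the test. The test took the tissues as independent, although at 1 h all but olfactory bulb came from the same rats. The Insig1 effect was 0.89 in kidney and 0.64 in heart, -0.03 in brain stem, -0.27 in olfactory bulb, -0.22 in lung and -0.65 in blood, where the groups spread widest. For Sqle it was 0.83 in heart, 0.61 in kidney, -0.02 in brain stem, -0.14 in olfactory bulb, -0.17 in lung and -0.67 in blood. The effects of both genes were above 0 in kidney and heart, and only those of kidney were called. In brain stem they lay within their SE of 0 (-0.03 ± 0.09 for Insig1 and -0.02 ± 0.11 for Sqle). In lung, olfactory bulb and blood they were below 0 and not called. Sqle was dim in heart and blood, as given below with its Air levels. Dhcr7 did not pass (adjusted p = 0.059). At 3, 6 and 24 h 0 of 8 genes passed, against 0.303%, 0.00644% and 0% of probe sets. Insig1 and Sqle passed at 1 h also without the arrays with hepatocyte RNA.

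**Figure D2:**
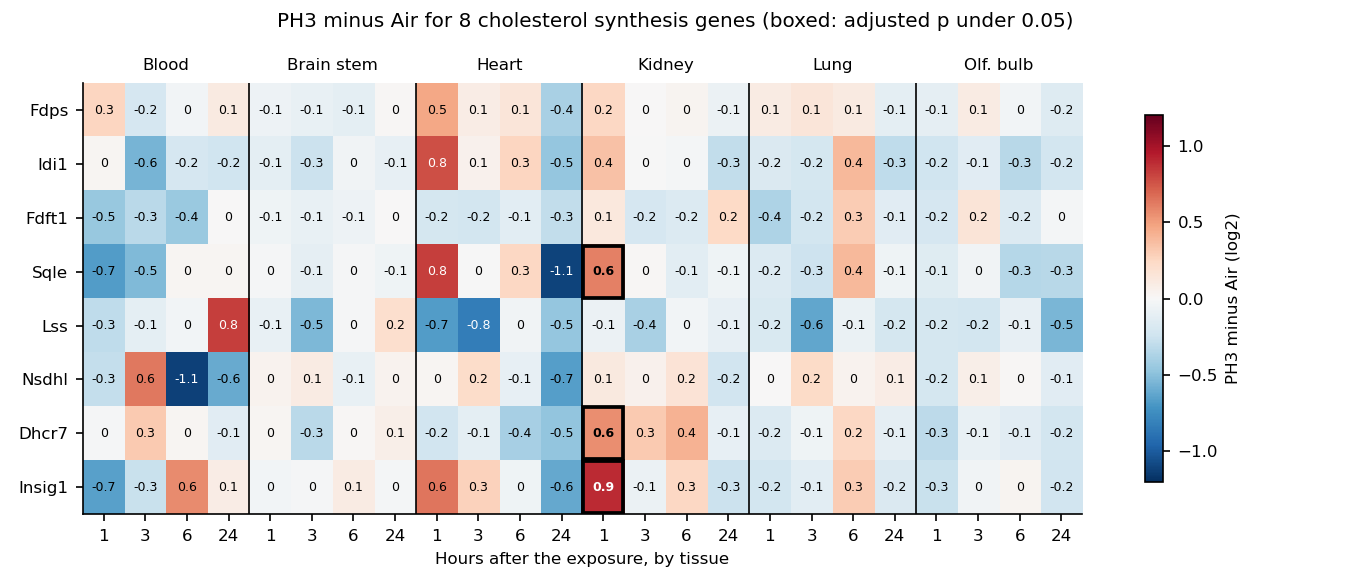
PH3 minus Air (log2) of the 8 genes (rows) by tissue and hours after exposure (columns), with red above and blue below 0 and boxes around the called values. The 3 boxes lie in kidney at 1 h, heart at 1 h shows Sqle, Idi1, Insig1 and Fdps above 0, and all 8 values of heart at 24 h are below 0.

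In heart at 1 h 0 of 8 genes were called, where 0.915% of probe sets were. Insig1 read 8.29, 8.16, 8.31 and 8.43 in Air (Rat345, Rat352, Rat353 and Rat354) and 9.49, 8.93, 8.68 and 8.65 in PH3 (Rat343, Rat350, Rat351 and Rat357), so the groups did not overlap, and the effect was 0.64 ± 0.21 (95% interval 0.21 to 1.08; adjusted p = 0.17). Sqle read 4.67, 5.44, 5.45 and 5.0 in Air and 5.81, 6.40, 5.40 and 6.27 in PH3. Here Rat351 lay among the Air arrays and the other 3 above them, at 0.83 ± 0.36 (adjusted p = 0.357). Air Rat354 of this hour carried hepatocyte RNA, with the mean of the 5 hepatocyte markers at 8.55 against a heart median of 5.12. PH3 Rat350 came next at 7.625, which was under the cut used for such RNA. The part of that RNA in these heart values was not tested.

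Idi1 in heart at 1 h differed by 0.77 ± 0.36 and Fdps by 0.46 ± 0.22, whose groups did not overlap. Lss (-0.67 ± 0.48), Dhcr7 (-0.23 ± 0.61), Fdft1 (-0.21 ± 0.26) and Nsdhl (0.03 ± 0.33) were the other effects of that hour, none of them called. Insig1 was called with the 3′ index as a covariate (adjusted p = 0.0389) or against all Air heart arrays (0.0301), and Sqle with the rat as a block (0.0214). The 3′ index, the difference between 3′ and 5′ probe sets of Gapdh and beta-actin that grows as RNA breaks down, was 0.87 in PH3 Rat357 and 0.21 to 0.28 in the other 7 hearts of this hour. Idi1 read 8.56 and Fdft1 7.96 in that rat, above and below the other 3 PH3 hearts, and the part of RNA quality was not tested. Among the export genes Mylip, a ubiquitin ligase and target of the sterol-sensing receptor LXR, named after its values were seen, fell by 0.91 ± 0.20 (adjusted p = 0.0186), with 1 of 10 genes of that list called.

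In heart at 24 h all 8 effects were below 0, with a median of -0.47, and 0 were called (0.00644% of probe sets). Air Rat340 stood apart. Its Dhcr7 read 8.79, against 3.94, 4.81 and 5.39 in the other Air hearts of that hour and 5.40, 5.22, 5.77 and 4.64 in PH3. Its Fdps read 10.32, against 8.45, 8.83 and 8.97 in Air and 8.83, 8.73, 8.93 and 8.54 in PH3. This array was the highest of its group for all 8 genes. PH3 Rat341, low for Insig1 (7.78) and Fdft1 (7.97), had a 3′ index of 0.747, against 0.166 to 0.312 in the other 3 PH3 hearts.

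That heart array carried hepatocyte RNA, with Alb at 13.83, Apoa1 at 11.27, Ttr at 12.68, Fgb at 11.68 and Serpina1 at 12.28, and the mean of the 5 markers, 12.35, stood above the heart median of 5.12. Without it the 24 h effects of Sqle, Insig1, Dhcr7 and Fdps changed from -1.11, -0.61, -0.48 and -0.39 to -0.72, -0.35, 0.54 and 0.00. The number of effects below 0 changed from 8 to 5 and their median from -0.47 to -0.12, with no call. The rat block fit called Sqle at 24 h (adjusted p = 0.00359) with this array included. In heart at 3 h and 6 h 0 of 8 genes were called (0.00644% and 0% of probe sets), and 0 of 8 effects differed between the times (0.116% of probe sets).

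Hepatocyte RNA was found on 13 of the 192 arrays, where the mean of the 5 markers lay more than 3 log2 units above the median of the tissue. They comprised 5 in kidney, 4 in olfactory bulb, 2 in heart, 2 in brain stem and 0 in lung and blood. The 3 arrays with the highest markers were heart Air Rat340 (12.35), olfactory bulb PH3 Rat391 at 6 h (12.32) and kidney PH3 Rat387 at 6 h (11.60). Of the 8 genes, 8, 6 and 4 on these arrays were above every other array of the group without such RNA. Nsdhl read 8.83 in olfactory bulb Rat391, against 7.13 to 7.62 in the other 3 rats, and 8.91 in kidney Rat387, against 7.97 to 8.07. In brain stem Air Rat340, with markers at 9.64, 1 of the 8 genes was above the rest of the group. How much of these levels came from hepatocyte RNA was not tested.

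**Figure D3:**
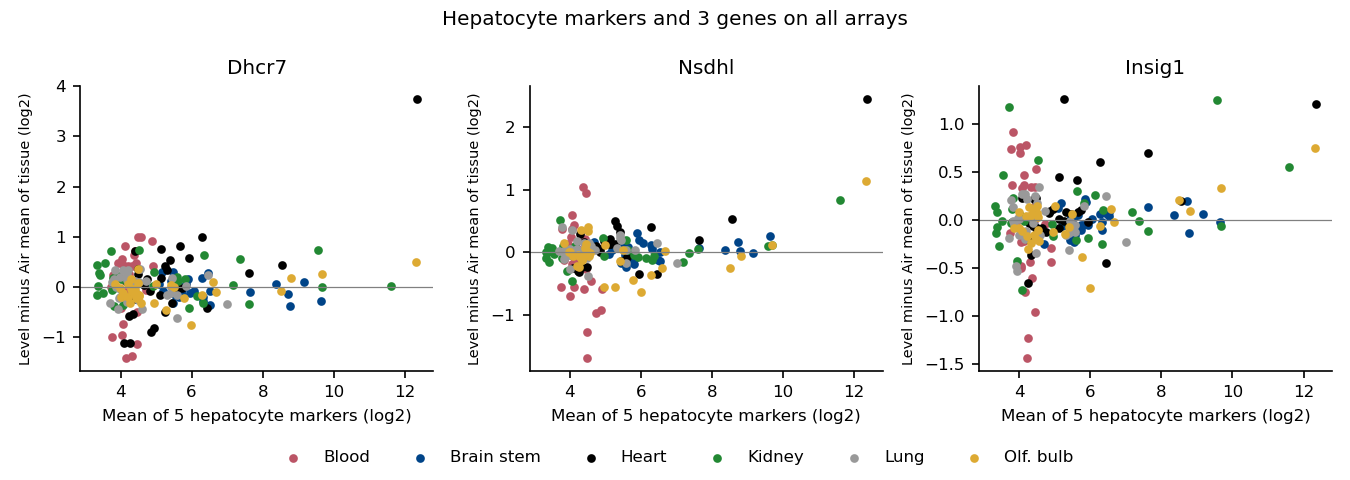
Level of Dhcr7, Nsdhl and Insig1 minus the mean of the tissue's Air arrays without hepatocyte RNA (log2, y axis) against the mean of 5 hepatocyte markers (log2, x axis) on all 192 arrays, coloured by tissue. Heart Air Rat340, at 12.35 on the x axis, is the highest point for Dhcr7 and Nsdhl, and most other arrays scatter around 0.

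In lung, the tissue with the most calls, 0 of 8 genes were called at each time. At 1 h 0 of 8 were called against 4.24% of probe sets, and at 3 h 0 of 8 against 9.89%. Lss was nearest at 3 h, with 6.81, 7.03, 7.35 and 7.45 in Air (Rat355, Rat365, Rat370 and Rat400) and 6.23, 6.79, 6.25 and 6.89 in PH3 (Rat359, Rat361, Rat368 and Rat399), an effect of -0.62 ± 0.23 (adjusted p = 0.0858). The groups overlapped by the values of Air Rat355 and PH3 Rat399, and the second Lss probe set gave -0.58 ± 0.22 (adjusted p = 0.0964) with no overlap. The 3′ index of these arrays was 0.343 to 0.521 in Air and 0.0952 to 0.247 in PH3, and its part in the Lss values was not tested.

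Fdft1 in lung at 1 h differed by -0.37 ± 0.14 (adjusted p = 0.162) with groups that did not overlap. At 6 h 7 of 8 effects were above 0, up to 0.39 for Idi1, and at 24 h 1 of 8, with 0% of probe sets called at either hour. Whether the effect differed between times was tested, and 0 of 8 genes passed against 4.82% of probe sets.

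By the median over the 8 genes, brain stem showed the narrowest spread of the 6 tissues. The SD within groups had a median of 0.137 over the 8 genes there, against 0.208 in olfactory bulb, 0.213 in lung, 0.214 in kidney, 0.516 in heart and 0.576 in blood. The 95% interval of an effect in brain stem reached a median of 0.20 to either side, against 0.30 in kidney and 0.71 in heart. Lss was wider in brain stem, with an SD of 0.449, than in kidney (0.41), lung (0.345) and olfactory bulb (0.214). Its interval in brain stem at 3 h ran from -1.152 to 0.07. At 1 h the 8 effects ran from -0.12 to 0.04, and 0 were called against 0.306% of probe sets. At 3 h they ran from -0.54 (Lss) to 0.10, with Dhcr7 (-0.32) and Idi1 (-0.26) in groups that did not overlap and 0 called (0.0161%). At 6 and 24 h 0 were called (0% and 0.00322%), and the effect between times passed for 0 of 8 (0.0709%).

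In olfactory bulb 0 of 8 genes were called at 1 h (0.00322% of probe sets) and at 3, 6 and 24 h (0% each), and the effect differed between times for 0 of 8 (0%). All 8 effects were below 0 at 1 h, from -0.32 to -0.10, and at 24 h, from -0.55 to -0.02. Sqle read 8.44, 8.67, 8.62 and 8.39 in Air (Rat382, Rat388, Rat394 and Rat526) and 7.86, 8.38, 8.35 and 8.18 in PH3 (Rat381, Rat387, Rat391 and Rat522) at 6 h. The groups did not overlap, by a narrow margin, and the effect of -0.34 was not called (adjusted p = 0.473). In blood 0 of 8 genes were called at any of the 4 times (0% of probe sets at each), nor between times (0%), and effects ran from -1.12 (Nsdhl, 6 h) to 0.83 (Lss, 24 h).

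Over the 192 pairs of a gene and a contrast, 67 effects were above 0 and the PH3 and Air groups did not overlap in 13. The share of all probe sets without overlap was not counted, so the 13 cannot be set against a background. The genes also varied together and the tissues share rats, so the pairs are not independent. The range of a gene over the 24 contrasts was -1.11 to 0.83 for Sqle and -1.12 to 0.63 for Nsdhl. Fdft1 ran from -0.45 to 0.30 and Fdps, farnesyl diphosphate synthase, from -0.39 to 0.46.

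The Air level of each gene differed between tissues. Brain stem came first for all 8 genes, or for 7 of 8 with array medians subtracted, where kidney came first for Dhcr7. Blood came last for 7 of 8 and heart for Fdps. The sources used here do not say whether RMA was run on all tissues at once, so an order of tissues also rests on that step; the values below are mean ± SD over 15 Air arrays of blood, 17 of olfactory bulb and 16 of each other tissue. Levels are compared between tissues for 1 gene at a time, since probe sets differ in brightness.

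Among the isoprenoid enzymes, Idi1 stood at 10.17 ± 0.17 in brain stem, 8.92 ± 0.15 in kidney, 8.73 ± 0.14 in olfactory bulb, 8.45 ± 0.26 in lung, 6.80 ± 0.60 in heart and 5.37 ± 0.64 in blood, each step larger than the larger of the 2 SDs. The ends differed by a ratio of 27.9. Fdps stood at 10.79 ± 0.11 in brain stem, 9.90 ± 0.23 in blood, 9.57 ± 0.28 in lung, 9.39 ± 0.11 in olfactory bulb, 9.12 ± 0.13 in kidney and 8.86 ± 0.41 in heart. Its steps from lung to olfactory bulb and from kidney to heart were within the SD, and blood, last for the other 7 genes, came next after brain stem for Fdps. Without Air Rat340 the heart mean of Fdps was 8.76 ± 0.14, and the step from kidney exceeded the SD.

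Among the squalene enzymes, Fdft1 stood at 9.89 ± 0.09 in brain stem, 9.25 ± 0.18 in kidney, 8.77 ± 0.25 in heart, 8.10 ± 0.19 in olfactory bulb, 7.90 ± 0.19 in lung and 6.09 ± 0.41 in blood. Every step exceeded the SD, that from olfactory bulb to lung by little. Sqle stood at 9.92 ± 0.16 in brain stem, 8.61 ± 0.13 in olfactory bulb, 7.69 ± 0.23 in lung, 7.60 ± 0.17 in kidney, 5.29 ± 0.64 in heart and 4.89 ± 0.42 in blood. Lung and kidney, and heart and blood, did not differ beyond the SD, and brain stem was above blood by a ratio of 32.7. Sqle was dim in heart and blood, above 52.7% and 45.9% of the probe sets of the tissue. How far background set these levels, and so the ratio, was not tested.

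Lss stood at 8.97 ± 0.38 in brain stem, 7.38 ± 0.24 in olfactory bulb, 7.24 ± 0.33 in lung, 7.20 ± 0.38 in kidney, 6.27 ± 0.67 in heart and 5.16 ± 0.68 in blood, with olfactory bulb, lung and kidney within the SD of their neighbours. Nsdhl stood at 9.02 ± 0.14 in brain stem, 8.08 ± 0.12 in kidney, 7.68 ± 0.16 in olfactory bulb, 7.55 ± 0.18 in lung, 7.45 ± 0.65 in heart and 6.28 ± 0.42 in blood. Olfactory bulb, lung and heart were within the SD of their neighbours for Nsdhl. Without Air Rat340 the heart mean of Nsdhl was 7.30 ± 0.25, and the step from lung was about equal to the SD.

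Dhcr7 stood at 8.56 ± 0.20 in brain stem and 8.53 ± 0.21 in kidney, which did not differ beyond the SD, then 7.26 ± 0.17 in olfactory bulb, 6.33 ± 0.27 in lung, 5.31 ± 1.08 in heart and 5.01 ± 0.69 in blood. Without Air Rat340 the heart mean of Dhcr7 was 5.07 ± 0.58. Insig1 stood at 9.68 ± 0.12 in brain stem, 8.72 ± 0.24 in lung, 8.62 ± 0.15 in olfactory bulb, 8.32 ± 0.36 in heart, 7.98 ± 0.17 in kidney and 6.13 ± 0.64 in blood. The steps from lung to olfactory bulb, to heart and to kidney were within the SD for Insig1, and that from kidney to blood was beyond it. Without Air Rat340 the heart mean of Insig1 was 8.24 ± 0.21, and its steps from olfactory bulb and to kidney exceeded the SD.

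**Figure D4:**
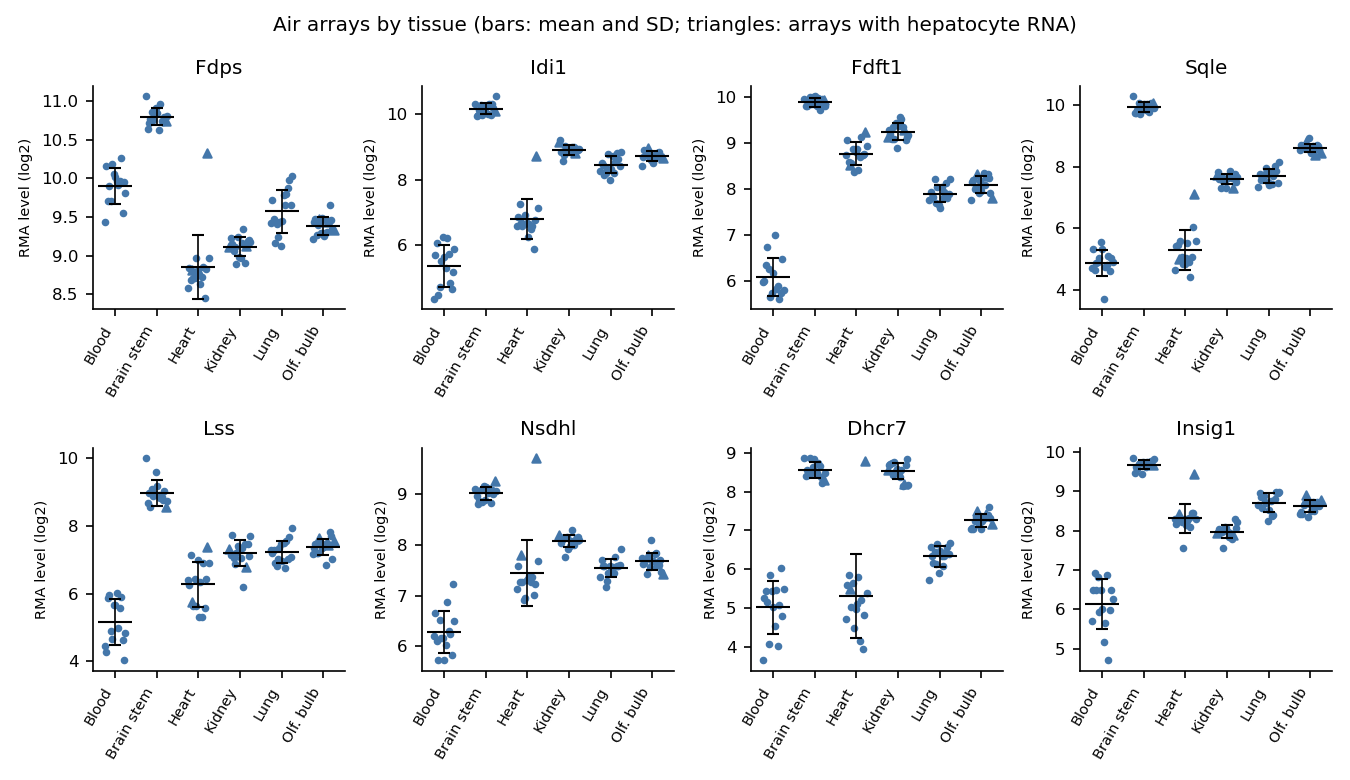
RMA level (log2) of each of the 8 genes on every Air array by tissue, 1 panel a gene, with bars for the mean and SD and triangles for arrays with hepatocyte RNA. Brain stem is highest in every panel as deposited, with kidney level with it for Dhcr7 (first with array medians subtracted), and the high heart triangle is Air Rat340.

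Brain stem exceeded olfactory bulb by a ratio of 2.09 for Insig1 to 3.45 for Fdft1. The mean of 7 oligodendrocyte markers was 11.8 in brain stem and 9.35 in olfactory bulb, and between 4.57 and 6.03 in the other tissues; the part of oligodendrocytes in the levels was not tested. By the means of the lists, the labelled tissues matched their markers, though single markers did not all do so. The kidney marker Slc34a1 read 5.53 in Air kidney and 7.39 in Air heart at 1 h. The olfactory bulb marker Doc2g read 9.02 in Air heart at 1 h. Brain stem markers averaged 7.15 in brain stem and 3.07 in olfactory bulb. Olfactory bulb markers averaged 7.19 in olfactory bulb and 4.66 in brain stem. Heart markers averaged 12.9 in heart, kidney markers 10.1 in kidney, lung markers 12.9 in lung, nervous tissue markers 10.5 in both brain stem and olfactory bulb, and blood leukocyte markers 10.4 in blood. Adrenal cortex markers averaged 4.58 or less in all tissues.

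The Air groups of different times were compared as a measure of drift without exposure. In lung Fdps differed between the Air times (adjusted p = 0.00447), 1 of 8 genes against 12.2% of probe sets. It read 9.42, 9.72, 9.47 and 9.16 at 1 h, 9.41, 9.24, 9.43 and 9.12 at 3 h, 9.45, 9.78, 9.65 and 9.80 at 6 h and 9.87, 9.98, 9.66 and 10.03 at 24 h. The 3 h arrays all lay below the 6 h and 24 h arrays, and the 1 h arrays overlapped those of 3, 6 and 24 h. The 3′ index of the lung Air arrays averaged 0.445 at 3 h and 0.139 to 0.217 at the other hours, and with it as a covariate the adjusted p was 0.366. In the other tissues 0 of 8 genes differed between the Air times, against 7.8% of probe sets in brain stem, 1.39% in olfactory bulb, 0.548% in heart, 0.00322% in kidney and 0% in blood. In brain stem Dhcr7 was called without Air Rat365 of 3 h (adjusted p = 0.0476).

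Within a tissue the 8 genes varied together to different degrees, described here by Pearson's r over deviations from group means, for the 28 pairs of genes. The median r was 0.612 in olfactory bulb, 0.573 in brain stem, 0.473 in heart, 0.447 in lung, 0.376 in kidney and 0.105 in blood, over 31 to 33 arrays that share RNA extraction, 3′ index and scaling. In heart it was 0.355 without the arrays with hepatocyte RNA. All 28 pairs were positive in brain stem and 17 of 28 in blood.

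The genes whose pattern was most like that of the 8 were ranked by Pearson's r with the mean of the 8, each level taken from its tissue mean over both exposures. Over all 192 arrays these were Msmo1 (0.67), Tm7sf2 (0.596), Rida (0.577), Tmem97 (0.537) and Nipsnap1 (0.536). Over the 179 arrays without hepatocyte RNA they were Msmo1 (0.572), Acat2 (0.447), Tmem97 (0.443), Nutf2 (0.433) and Dnajb1 (0.427). In the 32 kidney arrays Msmo1 (0.905) and Cyp51 (0.897) led, followed by Ubald1 (0.738), Srf (0.72) and Crem (0.69). Msmo1 and Cyp51 are enzymes of the same route, which the choice by pattern did not use.

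Lss followed the individual rat from tissue to tissue, which was seen in the data before it was tested. The deviation of each array from its group mean was correlated between tissues of the same rat, for 10 pairs of tissues and 8 genes, 80 relations, with 100000 permutations within groups and adjustment over the 80. Lss passed in 5 of 10 pairs and each of the other 7 genes in 0 of 10; whether Lss differed from them was not tested. Between kidney and lung its Pearson r was 0.887 and Spearman rho 0.893 over 30 rats (permutation p = 1e-05 for both, the smallest they can give; adjusted p = 0.0008), 0.873 without the 2 rats farthest from the kidney median, 0.874 in Air and 0.899 in PH3. Of all probe sets 0.28% reached that r between kidney and lung, and for the other pairs that passed the share was 0.451% (heart with kidney), 0.406% (heart with lung), 1.73% (brain stem with lung) and 1.76% (brain stem with kidney).

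The other pairs that passed were heart with kidney (r = 0.765, rho = 0.749, permutation p = 2e-05 and 3e-05, adjusted p = 0.0008 and 0.0012), heart with lung (0.757 and 0.74, permutation p = 0.00011 and 0.00019, adjusted 0.00293 and 0.00507), brain stem with lung (0.628 and 0.589, permutation p = 0.00019 and 0.00031, adjusted 0.0038 and 0.0062) and brain stem with kidney (0.618 and 0.642, permutation p = 0.00086 and 0.00076, adjusted 0.0138 and 0.0122). Without the 2 farthest rats these r were 0.746, 0.713, 0.621 and 0.643. Within Air and PH3 they were 0.735 and 0.795, 0.577 and 0.924, 0.318 and 0.874, and 0.226 and 0.931, so the brain stem relations were lower among Air rats, a difference that was not tested. Brain stem with heart (0.514, adjusted p = 0.117) and the 4 pairs with blood (-0.116 to 0.0955) did not pass. The second Lss probe set gave r of 0.617 to 0.757 for the 6 pairs of solid tissues. Averaged over 5 tissues, Rat351 (PH3, 1 h) lay lowest at -0.70 and Rat350 (PH3, 1 h) highest at 0.50, in the same group. The olfactory bulb was left out of the pairs because its rats mostly gave no other tissue, and what the rats shared was not tested.

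**Figure D5:**
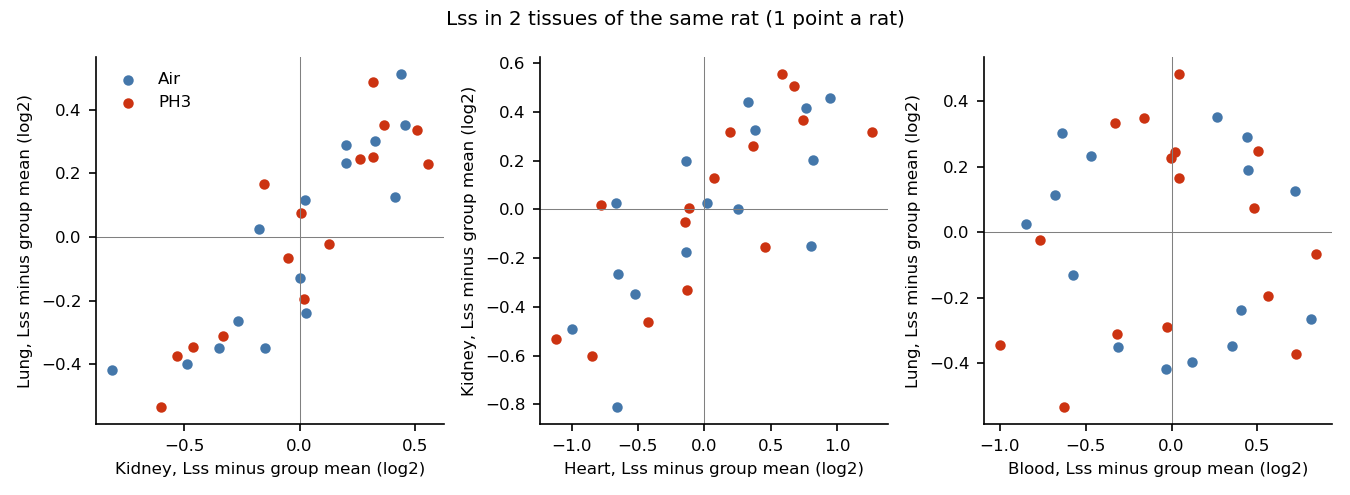
Lss minus its group mean (log2) in a pair of tissues of the same rat, for kidney and lung, heart and kidney, and blood and lung, with 1 point a rat, Air in blue and PH3 in red. The points rise together for kidney with lung (r = 0.887) and heart with kidney (r = 0.765) and form no line for blood with lung (r = 0.0201).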

How the data were processed

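Affymetrix 3′ IVT arrays of 6 rat tissues, 192 in all, were analysed from the table of log2 levels that the authors deposited. Per the submitters' processing notes, the tools were Partek and RMA. RMA subtracts background, sets arrays to 1 distribution and summarises probes. The notes give no versions, and no label says if tissues were normalized as 1 set. Of 31139 probe sets, 97 controls were left out and 31042 tested; 19063 name 1 gene, 572 several and 11407 none. Levels ran from 2.04 to 14.18, and the number of arrays limits the precision.

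Effects came from limma 3.58.1 in R 4.3.3, 1 fit per tissue with a coefficient for each of its 8 groups. F tests compared effects or Air groups between times, and effects of different tissues were compared with weights from their own errors. That comparison took the tissues as independent, although all but olfactory bulb came mostly from the same rats. Figures and correlations used Python 3.11.15 (numpy 2.4.6, scipy 1.17.1, pandas 2.3.3, matplotlib 3.10.9). The fit was checked on simulated data. The rat number links tissues of the same animal and pairs no PH3 rat with an Air rat, and the consensus correlation of a rat's tissues was 0.0168. No 2 arrays correlated above 0.9957, and 0 arrays were closest to another tissue.

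Alternatives covered the scaling, the filter on dim probe sets, the covariate, the control arrays, the empirical Bayes step, the block and leaving out single arrays. Leaving out arrays with hepatocyte RNA or a 3′ index above 0.7 was added after the data were seen. The members and lists were chosen with earlier results of these data known. All members were named, by their brightest probe set. Of each other list, the rule named genes called where a member was called, and Srebf1 and Srebf2 in any case; Msmo1, Cyp51 and Mylip were named after their values were seen.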

Additional observations from a re-analysis of the deposited data

Results flagged for a closer look

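Single arrays far from the rest of their group were found 22 times over the 8 genes and all groups of 4 or 5 arrays, 6 high and 16 low. Chance flags about 1 in 20 groups of a gene, which gives a count close to the 22 found. That comparison covers the number of flags only, not their side or the arrays they fall on. The genes also varied together and the tissues share rats. The count therefore cannot decide whether the arrays listed here stand out from chance as a set. Whether any single one does was not tested. In brain stem, Sqle read 9.64 in PH3 Rat351 at 1 h (others 9.93 to 9.99), Insig1 9.44 in Air Rat370 at 3 h (9.71 to 9.75), Dhcr7 8.54 in PH3 Rat387 at 6 h (all others 8.63) and Lss 9.77 in PH3 Rat325 at 24 h (8.68 to 8.78).

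In heart, Insig1 read 9.44 in Air Rat340 at 24 h (8.31 to 8.46), the array with hepatocyte markers at 12.35, 7.57 in Air Rat370 at 3 h (8.21 to 8.33) and 7.78 in PH3 Rat341 at 24 h (8.13 to 8.17). Fdft1 read 7.96 in PH3 Rat357 at 1 h (8.68 to 8.74), 7.39 in PH3 Rat368 at 3 h (8.68 to 8.84) and 7.97 in PH3 Rat341 at 24 h (8.80 to 8.91). All of these heart arrays but that of Rat340 had a 3′ index above 0.7, as did brain stem Air Rat370. An index that high was found on 7 of the 192 arrays, and the flagged values on these heart and brain stem arrays were all low. The part of RNA quality was not tested.

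In kidney, Dhcr7 read 9.04 in PH3 Rat351 at 1 h (9.28 to 9.29) and Nsdhl 8.91 in PH3 Rat387 at 6 h (7.97 to 8.07), whose hepatocyte markers averaged 11.60. Idi1 read 8.82 in Air Rat328 (8.92 to 8.93) and 7.88 in PH3 Rat341 (8.76 to 8.93), both at 24 h. In lung, Insig1 read 8.81 in Air Rat328 at 24 h (8.97 to 8.99), and Nsdhl 7.91 in Air Rat502 at 24 h (7.58 to 7.60) and 7.38 in PH3 Rat357 at 1 h (7.60 to 7.64).

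In olfactory bulb, Insig1 read 7.88 in PH3 Rat508 at 1 h (8.36 to 8.44) and Lss 6.85 in Air Rat388 at 6 h (7.41 to 7.50). In blood, Dhcr7 read 3.64 in Air Rat345 at 1 h (5.14 to 5.44), and Fdps 10.26 in Air Rat394 at 6 h (9.91 to 9.96) and 10.45 in PH3 Rat350 at 1 h (9.92 to 9.94).

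The PH3 effect at 1 h differed between the 6 tissues for Insig1 (adjusted p = 0.000542) and Sqle (adjusted p = 0.00451), by limma effects weighed by their errors, with effects from -0.65 in blood to 0.89 in kidney for Insig1 and from -0.67 in blood to 0.83 in heart for Sqle.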

How the results depend on the processing

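Of 832 alternatives of 40 counts of called genes, 811 stayed within 1.5 times of the count. Of 37 counts at 0, 24 stayed at 0 under every alternative run. For each count the alternatives include any probe set of a gene, which could change the count only through Fdft1 and Lss. The kidney count at 1 h, 3 of 8, was 1 (Dhcr7) from a fit of the 2 groups alone, 1 (Insig1, adjusted p = 0.0209) with the rat as replicate block, 1 to 3 with single arrays left out and 0 (lowest adjusted p = 0.0519) without arrays with hepatocyte RNA. Over 17 alternatives each, limma gave Insig1 0.755 to 1.03 (called in 15, adjusted p 0.000152 to 0.0761), Sqle 0.50 to 0.68 (13, 0.000306 to 0.436) and Dhcr7 0.49 to 0.69 (7, 0.000251 to 1). With the rat as replicate block the counts were 2 in blood at 1 h (Insig1 and Sqle), 1 in blood at 6 h (Nsdhl), 1 in heart at 1 h (Sqle) and 1 in heart at 24 h (Sqle). For the effect between times the block gave 2 in blood (Insig1 and Nsdhl) and 1 in heart (Sqle), and between Air times 1 in blood (Insig1) and 1 in heart (Sqle). This block fit pools the spread of all tissues, and blood and heart had the widest. Against all Air arrays of the tissue the counts were 1 in heart at 1 h (Insig1), 1 in lung at 1 h (Fdft1, adjusted p = 0.0109), 1 in lung at 3 h (Lss, 0.0482) and 2 in olfactory bulb at 6 h (Idi1 and Sqle). The 3′ index as a covariate gave 1 in heart at 1 h (Insig1) and 0 for the Air times in lung, where Fdps had been called. Leaving out single arrays gave 0 to 1 for the effect between times in kidney and 0 to 1 for the Air times in brain stem. Insig1 and Sqle differed between tissues at 1 h under all 4 alternatives run. Among these, counting any probe set of the gene could not change the result, as neither gene has a second probe set. The others were the rat block and leaving out arrays with hepatocyte RNA or a high 3′ index. With 4 rats a group, a 95% interval reached a median of 0.20 to either side in brain stem and 0.80 or more in blood, which limits the differences that could be seen there. For Dhcr7, brain stem moved to order 2 among the Air levels with array medians subtracted, and for the other 7 genes it stayed at 1.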
